A study of Mus musculus with 6 samples.

Results

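The 41 genes described here encode enzymes and signalling proteins of mammalian DNA repair, among them the Fanconi anaemia pathway. They were taken by name from a list, with 1 probe set per gene, and 38 of the 41 were measured among 22180 genes. The list was chosen with earlier results of these data known. Its shares beside those of all genes are therefore descriptions, not independent of that choice. The probe sets that cover Fanca and Ddb2 each carry another gene's symbol as well, and no probe set was named Xrcc2, so these 3 genes have no value. Expression was read on 6 microarrays, each from total RNA of 10000 mouse leukaemia cells sorted for green fluorescence (GFP) and not treated. All 6 samples were acute myeloid leukaemias driven by MLL-AF9, a fusion oncogene, on a C57BL/6J background. In 3 of them the cells were of wild-type genotype (WT), and in the other 3 they carried an Evi1 transgene (Evi1 Tg). Evi1 is a zinc finger transcription factor encoded by Mecom. The promoter that drives the transgene, its species and the age of the mice were not given in the labels, which also leave unsaid if the arrays within a group stem from different mice. Every p-value therefore measures only the spread between these samples.

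Cells meet broken or blocked DNA with a small set of repair routes. Homologous recombination copies the intact sister chromatid and works in S and G2 phase, whereas non-homologous end joining rejoins broken ends at any time. The Fanconi pathway unhooks crosslinks between DNA strands and hands the resulting break to recombination. Excision and mismatch repair replace damaged or mispaired bases, and the kinases ATM and ATR signal the damage to the cell cycle. Many recombination, Fanconi and checkpoint genes are known to be transcribed with the cell cycle, and rapidly dividing blood progenitors depend on them.

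Signals are given as log2 intensity, and a difference is Evi1 Tg minus WT on that scale, so that 1 is a doubling. A level of 6.16, the 90th percentile of 56 measured genes that blood cells do not use, served as the background level, and the mean of 36 of the 38 genes lay above it. Fancc and Pms2 lay at or below it. A probe set's level depends on its probes, so levels are compared between arrays and not between genes. The arrays had close median intensities of 51.6 to 55.4. Of 15 myeloid marker genes 14 were above background on all arrays, whereas 0 of 8 B cell genes and 0 of 9 T and NK cell genes were. Mecom itself read 37.0 and 38.6 in mean intensity in WT and Evi1 Tg (adjusted p = 0.890 by limma, a moderated linear model), below background in both, so the labels alone say which samples carried the transgene. The array WT 3 stood apart in what follows. It read most of the repair genes at the level of the Evi1 Tg arrays, and differences without it are given after those over all 6 arrays. With Mecom below background, whether its label is right could not be checked, and every difference rests on the labels as given. Over 17 measured p53 target genes, median deviations from each gene's mean were 0.17, 0.06 and 0.37 in the WT group, against -0.31, -0.30 and -0.06 with the transgene. Of the 17, 15 differed by less than 0 and 2 by more, and 0 passed at a limma adjusted p under 0.05. In 11 all Evi1 Tg arrays lay below all WT arrays, against 7.47% of all genes. Among genes picked after their values were seen, WT 3 lay with the other WT arrays for the stem cell factor receptor gene Kit, which read 6.50, 6.82 and 6.81 in the WT group, against 7.72, 7.77 and 8.30 with the transgene. The progenitor marker Cd34 read 5.70, 6.16 and 5.81 in the WT group, all below background, against 9.16, 9.67 and 6.44 with the transgene. WT 3 again lay with the other WT arrays, but Evi1 Tg 3 was far nearer to WT than to the other Evi1 Tg arrays. In the platelet gene Pf4, with 7.28, 7.70 and 6.14 in the WT group, against 5.72, 6.26 and 6.21 with the transgene, WT 3 lay with Evi1 Tg instead. Over whole lists, the summed intensity was 1249 to 1813 in WT and 2225 to 2957 in Evi1 Tg for 6 stem and progenitor genes. Of these 6 genes, 3 had a difference above 0 and 3 below 0. The latter were Hoxa10 (-0.39), Hoxa9 (-0.02) and Flt3 (-0.24), with Flt3 below background. The summed intensity of 5 platelet genes was 555 and 690 in WT 1 and WT 2, 317 in WT 3 and 325 to 425 with the transgene. Of these 5 genes, 2 had a difference above 0, Gp9 (0.21) and Itga2b (0.08, below background on all arrays). The 3 below 0 were Ppbp (-0.99), Pf4 (-0.98) and Vwf (-0.04). In Gp9 and Vwf, WT 3 was the lowest of the 6 arrays. The part of these cell types in the results was not tested.

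No repair gene passed the test between Evi1 Tg and WT, although most read higher in Evi1 Tg. In such bulk RNA, fewer cells of a type and less RNA per cell cannot be told apart. With limma and Benjamini-Hochberg adjustment over all genes, 0 of 38 genes were higher and 0 were lower at an adjusted p under 0.05, against 0.00902% and 0.104% of all genes. Their differences ran from -0.76 for Xrcc5 to 0.86 for Exo1, with a median of 0.36, where the median of all genes was 0.01. A difference above 0 was found for 31 of 38 genes, compared with 53.5% of all genes. At an unadjusted limma p under 0.05, 10 genes were higher (26.3%, against 4.5% of all genes) and 1 was lower (2.63%, against 5.8%). The 10 became 5 with each array centred on its median (13.2%, against 3.83% of all genes). They became 6 with a pseudocount of 16 (15.8%, against 4.45%) and 21 with array weights (55.3%, against 7.77%). When 1 array was left out they ranged from 2 (5.26%) to 26 (68.4%), where 2.64% to 9.42% of all genes were higher. The 3 Evi1 Tg arrays all lay above the 3 WT arrays for Blm, Atr and Ercc2, which is 7.89% of the genes, against 7.08% of all genes, and 0 genes were separated in the other direction (7.47% of all genes). That count was 9 (23.7%, against 8.17% of all genes) with quantile normalization and 1 (2.63%, against 6.16%) with median centring. With 3 arrays per group the smallest two-sided p of an exact permutation test is 0.1.

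**Figure D1:**
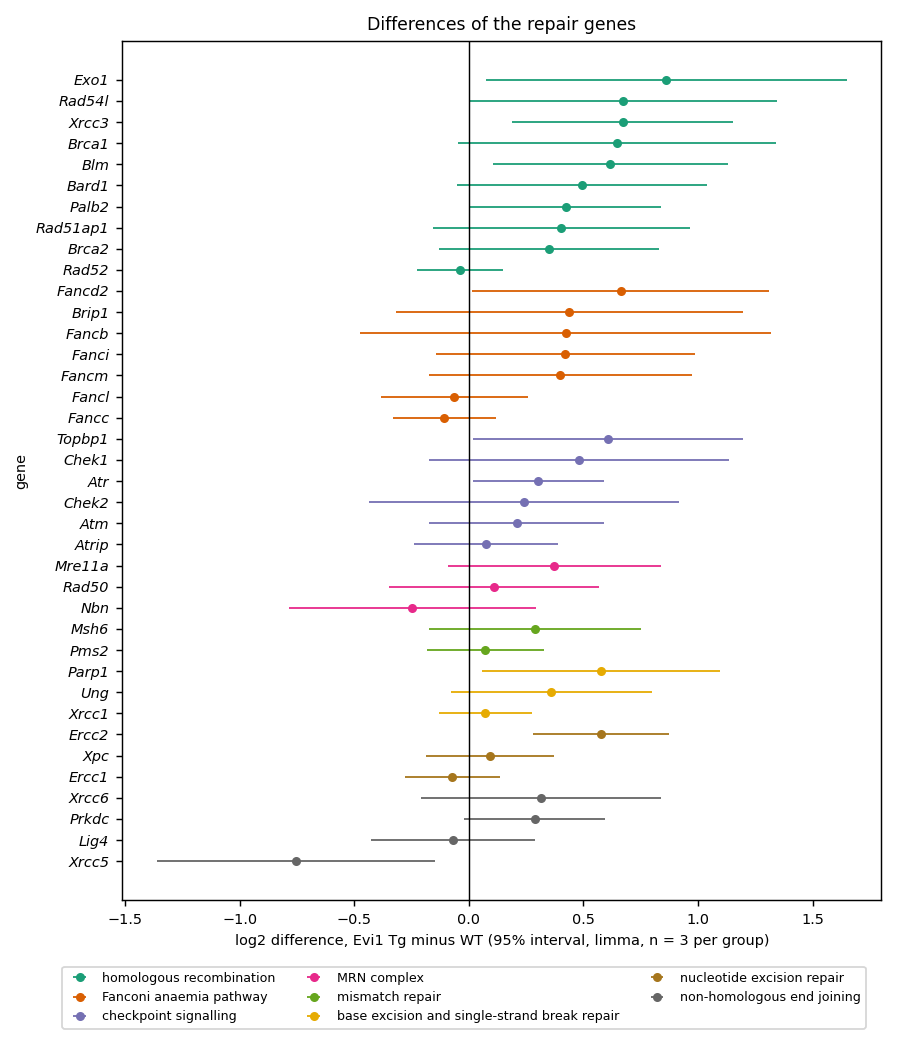
Log2 difference of each measured repair gene, Evi1 Tg minus WT, with its 95% interval from limma (n = 3 per group), coloured by role. Exo1 has the highest value (0.86) and Xrcc5 the lowest (-0.76), and most intervals include 0.

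The spread lay mainly within WT. The median SD of the repair genes was 0.40 over the 3 WT arrays and 0.15 over the 3 Evi1 Tg arrays, whereas genes above background had 0.20 and 0.13. WT 3 was the highest WT array for 34 of 38 genes (89.5%), compared with 51.4% of all genes above background. It exceeded the mean of WT 1 and WT 2 by a median of 0.68, with a range from -0.64 for Xrcc5 to 1.32 for Fancb. In 16 genes (42.1%) WT 3 was above all 3 Evi1 Tg arrays, near the 41.7% of genes above background. WT 1 and WT 2 were both below all Evi1 Tg arrays in 31 of 38 genes (81.6%, against 27.4% of genes above background and 17.7% of all genes).

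**Figure D2:**
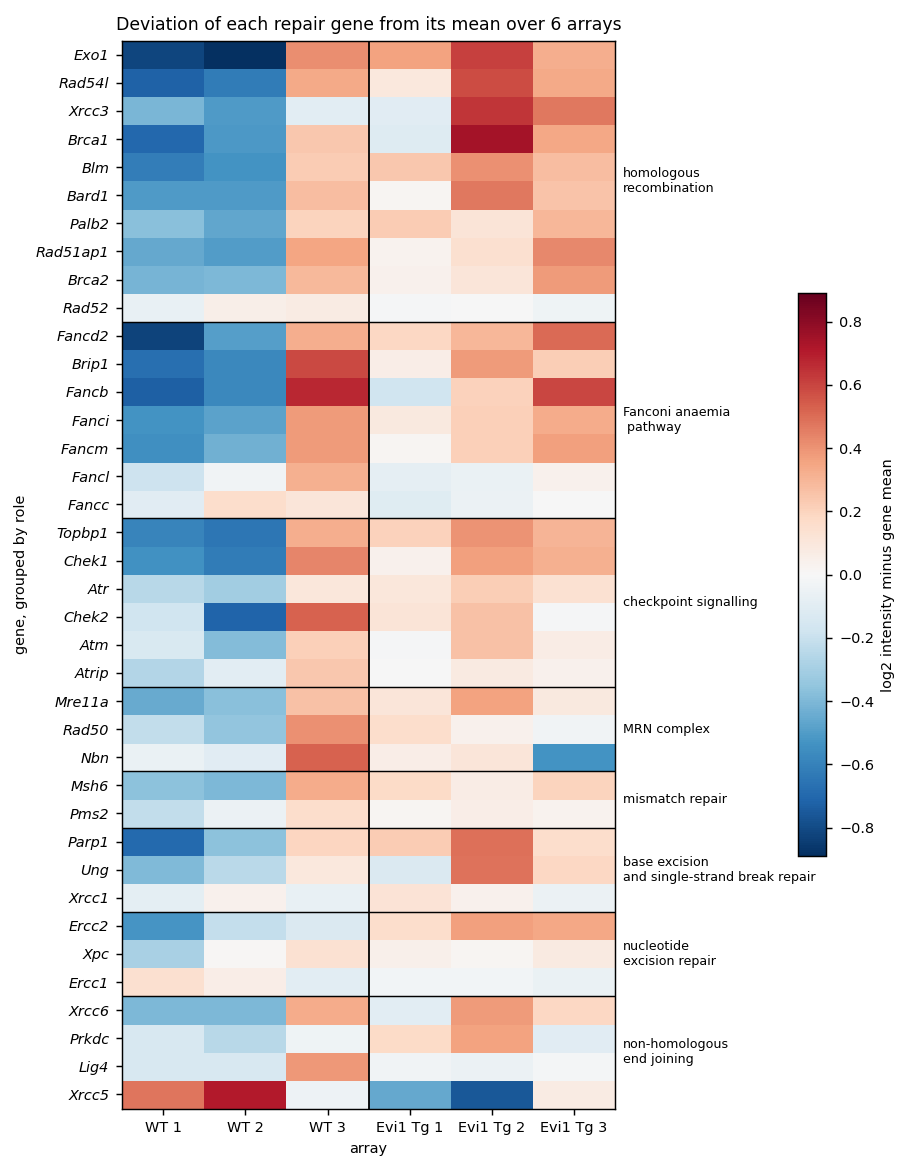
Log2 intensity of each repair gene on each array minus the gene's mean over the 6 arrays, with genes grouped by role and separated by black lines. WT 1 and WT 2 are blue for most recombination, Fanconi and checkpoint genes and WT 3 is red, like the Evi1 Tg arrays, whereas Xrcc5 runs the other way.

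The promoters of the repair genes were read for 3 short motifs on both strands. Sequences came from RefSeq on GRCm38.p6, in windows of 300 bases from 250 before to 50 after the start, and 34 windows of 32 of the 38 genes matched. An E2F-type motif (the letters TTCCCGC, the letters TTCGCGC, the letters TTGCCGC or the letters TTGGCGC), the form bound by factors of the G1 to S transition, occurred in 21 of 34 windows (61.8%), against 12.1% of the 20520 windows of all measured genes. The CCAAT box (CCAAT) occurred in 61.8% of the windows as well, against 37.7%, and the cell cycle homology region (TTTGAA or TTCGAA) in 5.88%, against 17.0%. The 20 genes with an E2F-type motif had a median difference of 0.40 and the 12 without one of 0.33, with a range of -0.07 to 0.65 and of -0.76 to 0.67. Without WT 3 these medians were 0.67 and 0.46. Of all measured genes 45.9% lay above background, against 36 of the 38 repair genes. The windows compared were not matched for level or base content. A match in these letters is a description and not a site.

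The 250 bases before the start are shown for the 5 of the 6 genes with the smallest p that matched, to set Xrcc5, with the lowest difference, beside Ercc2, Xrcc3, Blm and Parp1, with differences above 0, and the remaining gene is Exo1. Capitals mark the motifs on either strand. In Ercc2 (chr7:19381767-19382016, plus strand) the E2F-type motif, on the minus strand, starts at -92 and overlaps a CCAAT box, with further CCAAT boxes after it. Xrcc3 (chr12:111813880-111814129, minus strand) holds 6 CCAAT boxes and no E2F-type motif, and Blm (chr7:80534999-80535248, minus strand) holds 2 CCAAT boxes and an E2F-type motif at -142. Parp1 (chr1:180568641-180568890, plus strand) holds none of the 3 motifs, and Xrcc5 (chr1:72307171-72307420, plus strand) holds a single CCAAT box.
Ercc2: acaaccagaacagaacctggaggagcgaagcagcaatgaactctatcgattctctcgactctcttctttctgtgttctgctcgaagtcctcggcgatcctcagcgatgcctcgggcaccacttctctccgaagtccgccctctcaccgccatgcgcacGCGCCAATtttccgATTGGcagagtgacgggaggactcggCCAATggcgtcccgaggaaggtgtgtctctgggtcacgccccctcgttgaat
Xrcc3: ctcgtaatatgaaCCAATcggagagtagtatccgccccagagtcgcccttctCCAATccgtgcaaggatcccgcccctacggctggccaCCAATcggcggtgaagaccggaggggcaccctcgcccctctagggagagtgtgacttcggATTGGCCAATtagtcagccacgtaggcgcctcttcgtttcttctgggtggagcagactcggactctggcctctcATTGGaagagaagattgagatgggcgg
Blm: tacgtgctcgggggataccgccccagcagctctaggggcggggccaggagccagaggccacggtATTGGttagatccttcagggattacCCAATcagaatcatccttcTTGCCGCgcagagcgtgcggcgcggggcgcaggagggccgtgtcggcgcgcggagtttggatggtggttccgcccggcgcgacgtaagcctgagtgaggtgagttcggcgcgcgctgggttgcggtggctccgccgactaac
Parp1: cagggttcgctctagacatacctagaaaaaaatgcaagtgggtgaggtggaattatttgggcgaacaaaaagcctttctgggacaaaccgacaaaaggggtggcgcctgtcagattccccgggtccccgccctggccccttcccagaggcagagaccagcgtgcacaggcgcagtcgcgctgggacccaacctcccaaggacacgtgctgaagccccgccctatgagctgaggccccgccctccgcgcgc
Xrcc5: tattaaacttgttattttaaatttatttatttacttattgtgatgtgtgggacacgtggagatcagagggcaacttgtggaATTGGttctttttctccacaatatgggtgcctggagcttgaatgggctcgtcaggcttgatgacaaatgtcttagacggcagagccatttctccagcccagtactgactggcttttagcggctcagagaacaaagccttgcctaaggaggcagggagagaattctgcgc

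Of the 10 measured genes of homologous recombination, 9 differed by more than 0, the median being 0.56. Exo1 encodes an exonuclease that resects DNA ends and removes mismatched strands, and was added to the genes given in full after its values were seen. It read 7.62, 7.55 and 8.85 in WT 1, 2 and 3 and 8.80, 9.04 and 8.76 in Evi1 Tg 1, 2 and 3. WT 3 thus lay among the Evi1 Tg arrays and the other 2 WT arrays well below them, and the difference of 0.86 (SE 0.33, n = 3 per group) had a limma adjusted p of 0.438. Blm, a RecQ helicase that takes recombination intermediates apart, read 8.28, 8.37 and 9.12 in the WT group, against 9.14, 9.30 and 9.17 with the transgene. Its groups did not overlap, by a gap much smaller than the spread within WT (difference 0.62, SE 0.22, limma adjusted p = 0.387, exact permutation p = 0.1). Xrcc3, needed for recombination, had values of 7.35, 7.25 and 7.66 in the WT group and 7.65, 8.39 and 8.22 with the transgene. Here WT 3 and Evi1 Tg 1 met in the middle, and the difference was 0.67 (SE 0.20, limma adjusted p = 0.318).

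Brca1, which directs breaks to recombination and was likewise added after its values were seen, read 6.90, 7.09 and 7.84 in the WT group, against 7.49, 8.34 and 7.95 with the transgene, a difference of 0.65 (SE 0.29, limma adjusted p = 0.522). Its groups overlapped, and its SDs were 0.50 and 0.43. Among the partners of BRCA1 the difference was 0.49 for Bard1, the other subunit of its ubiquitin ligase, 0.42 for Palb2, which links it to BRCA2, and 0.35 for Brca2, a central mediator of recombination. Rad54l, a DNA motor protein of recombination, had 0.67 and Rad51ap1, which stimulates strand invasion, 0.40. Rad52, an annealing protein, stayed between 6.79 and 6.93 on all 6 arrays (difference -0.04, 95% interval -0.22 to 0.15).

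Within the Fanconi pathway 5 of 7 measured genes differed by more than 0, the median being 0.42. Fancd2 and Fanci encode the clamp that is ubiquitinated at a crosslink. Fancd2 read 7.57, 7.90 and 8.71 in the WT group, against 8.58, 8.69 and 8.90 with the transgene, with WT 3 inside the range of Evi1 Tg (difference 0.66, SE 0.28, limma adjusted p = 0.477). Fanci read 6.32, 6.38 and 7.23 in the WT group, against 6.94, 7.07 and 7.18 with the transgene, so that WT 3 was the highest array of all (difference 0.42, SE 0.24, limma adjusted p = 0.625). Brip1, a helicase that binds BRCA1, had a difference of 0.44, Fancm, the DNA translocase that anchors the core complex, 0.40, and Fancb, a core subunit, 0.42. In Fancm, Brip1 and Fancb too, WT 3 read above all Evi1 Tg arrays. Core subunits outside this group, measured in a further list, had differences above 0: Faap24 0.60, Fance 0.33, Faap100 0.04, Fancg 0.02 and Fancf 0.01. The remaining core members within this group, Fancl and Fancc, had values below 0. Fancl, the ubiquitin ligase, had -0.06 (95% interval -0.38 to 0.26), and Fancc -0.11, with 5.80, 6.05 and 6.01 in the WT group, against 5.79, 5.85 and 5.90 with the transgene, all under background.

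All 6 checkpoint genes differed by more than 0, the median being 0.27. Topbp1, which activates ATR, read 9.62, 9.57 and 10.53 in the WT group, against 10.42, 10.61 and 10.52 with the transgene. WT 3 again lay inside the Evi1 Tg range, and the difference was 0.61 (SE 0.25, limma adjusted p = 0.469). The kinase gene Atr read 7.80, 7.74 and 8.15 in the WT group, against 8.15, 8.27 and 8.18 with the transgene, so that WT 3 lay under Evi1 Tg 1 by less than the last digit shown (difference 0.30, SE 0.12, limma adjusted p = 0.455, exact permutation p = 0.1). A further Atr probe set, the sole extra one among these genes, gave a difference of 0.07 with overlapping groups. Chek1, the effector kinase of ATR, had 0.48, and Chek2, that of ATM, 0.24. For Atm the difference was 0.21 and for Atrip, the partner of ATR, 0.08, with intervals of -0.17 to 0.59 and -0.24 to 0.39.

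The 3 subunits of the MRN complex, which senses broken ends, had differences on both sides of 0, with a median of 0.11. Mre11a, its nuclease, read 8.72, 8.79 and 9.43 in the WT group, against 9.28, 9.53 and 9.26 with the transgene, a difference of 0.37 (SE 0.20, limma adjusted p = 0.592) with overlapping groups. Rad50, its ATPase, had 0.11, and Nbn, which recruits ATM, -0.25. The Nbn value turned on Evi1 Tg 3, which read 7.76 while the other 5 arrays lay between 8.19 and 8.82, and WT 3 was the highest of them. Without Evi1 Tg 3 the difference was -0.04 and without WT 3 it was -0.05.

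Median differences were 0.18 over the 2 mismatch repair genes and 0.36 over the 3 of base excision and strand break repair. Msh6, which recognises mismatches, read 7.41, 7.37 and 8.11 in the WT group, against 7.95, 7.84 and 7.97 with the transgene, so that WT 3 was highest (difference 0.29, SE 0.20, limma adjusted p = 0.705). Pms2, a mismatch repair endonuclease near background, had 0.07. Parp1, which senses strand breaks, read 8.20, 8.53 and 9.08 in the WT group, against 9.12, 9.38 and 9.05 with the transgene. Only WT 3 crossed into the Evi1 Tg range, and by little (difference 0.58, SE 0.22, limma adjusted p = 0.431). Ung, the uracil glycosylase, had 0.36. Xrcc1, the scaffold of strand break repair, lay between 7.32 and 7.53 on all arrays, with a difference of 0.07 (95% interval -0.13 to 0.28).

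Ercc2, which encodes the XPD helicase of the repair and transcription factor TFIIH, had the smallest p of the 38 genes. It read 7.38, 7.69 and 7.78 in the WT group, against 8.06, 8.27 and 8.25 with the transgene. All 3 Evi1 Tg arrays were above all WT arrays, and WT 3 stayed with its group. The means were 7.62 ± 0.21 and 8.19 ± 0.12 (SD, n = 3 each), a difference of 0.58 or 1.49-fold (SE 0.13, 95% interval 0.28 to 0.87), with an unadjusted limma p of 0.00245 and an adjusted p of 0.195. Leaving out WT 3 gave 0.66 (limma adjusted p = 0.0557). The other nucleotide excision genes were close to 0. Ercc1, the partner of the XPF nuclease, read 7.40, 7.32 and 7.17 in the WT group, against 7.24, 7.23 and 7.20 with the transgene (difference -0.07, SE 0.09, limma adjusted p = 0.868), and Xpc, which recognises damage, had a difference of 0.09.

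Of the end joining genes, Xrcc5 and Xrcc6 encode the Ku80 and Ku70 proteins, which bind broken ends as a pair, and their differences had opposite signs. Xrcc5 read 6.73, 6.95 and 6.20 in the WT group, against 5.80, 5.50 and 6.32 with the transgene. The groups overlapped through WT 3 and Evi1 Tg 3, and the difference was -0.76 (SE 0.26, limma adjusted p = 0.369). Evi1 Tg 1 and Evi1 Tg 2 lay under the background level, which bounds the size of that difference. Xrcc6 had 0.31, with 6.61 in both WT 1 and WT 2, 7.34 in WT 3 and 6.91 to 7.39 in Evi1 Tg. Prkdc, the catalytic subunit of DNA-PK that Ku recruits, read 7.68, 7.57 and 7.78 in the WT group, against 7.99, 8.17 and 7.72 with the transgene (difference 0.29, SE 0.13, limma adjusted p = 0.520). WT 3 lay above Evi1 Tg 3 and below the other Evi1 Tg arrays, so that these 2 arrays made the groups overlap. Lig4, the ligase of the pathway, had -0.07.

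**Figure D3:**
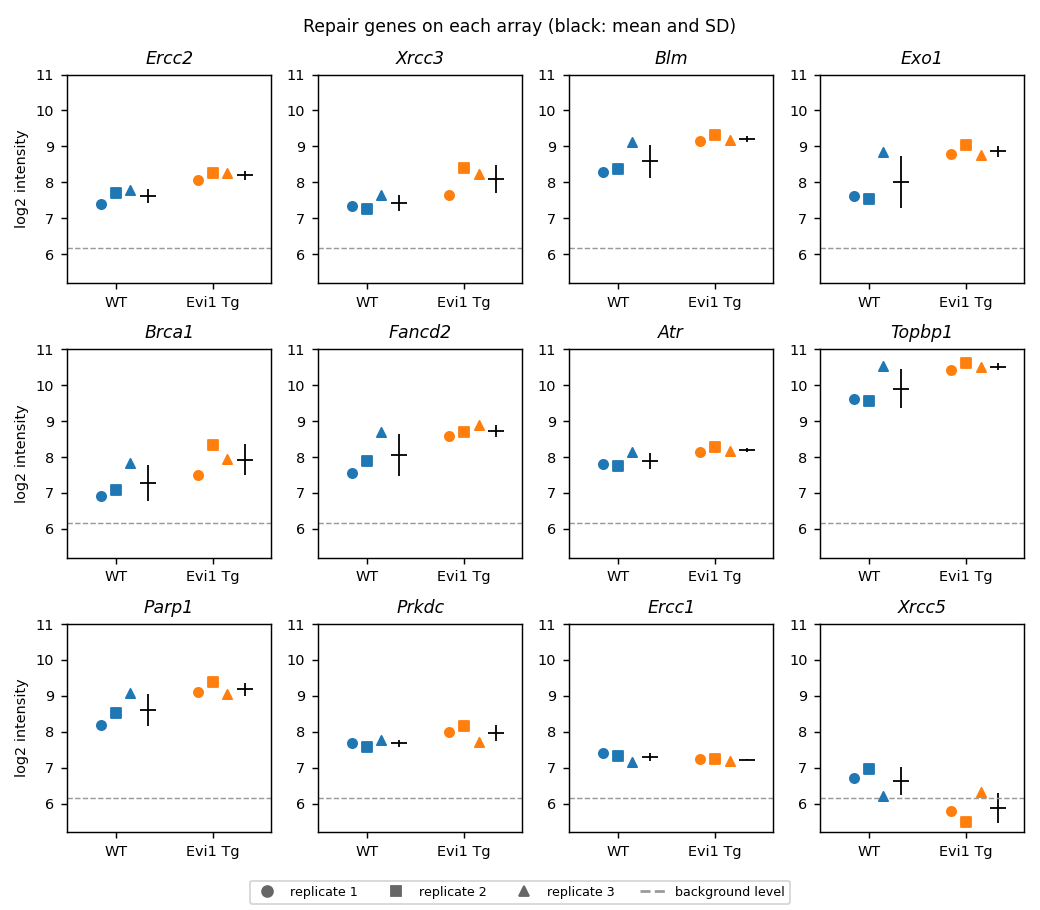
Log2 intensity of 12 repair genes on each of the 6 arrays, with the marker shape giving the replicate number, the black bar the mean and SD of each group (n = 3), and the dashed line the background level of 6.16. In Exo1, Fancd2 and Topbp1 the triangle of WT 3 sits with the Evi1 Tg arrays, in Ercc2 it stays with WT, and in Xrcc5 2 of the Evi1 Tg arrays lie under background.

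Leaving out WT 3 changed the calls. WT 3 was singled out for its level in these same genes. Larger differences and more calls without it therefore follow in part from that choice. Over the remaining 2 WT and 3 Evi1 Tg arrays, 12 of 38 genes were higher at a limma adjusted p under 0.05 (31.6%, against 1.73% of all genes) and 0 were lower (0.78%). They were Exo1 (difference 1.29), Rad54l (1.01), Blm (0.88) and Palb2 (0.63) of recombination, Fancd2 (0.99), Brip1 (0.84), Fanci (0.72) and Fancm (0.69) of the Fanconi pathway, the checkpoint genes Topbp1 (0.92) and Chek1 (0.82), and Parp1 (0.82) and Msh6 (0.53). Their limma adjusted p ran from 0.0175 for Exo1 to 0.0476 for Fancm. Of the other genes given in full, the difference without WT 3 was 0.93 for Brca1 (limma adjusted p = 0.106), 0.79 for Xrcc3 (0.119), 0.43 for Atr (0.0673), 0.60 for Mre11a (0.0526), -0.97 for Xrcc5 (0.0951), 0.34 for Prkdc (0.313), -0.14 for Ercc1 (0.535) and -0.08 for Fancc (0.827). The remaining differences without WT 3 were 0.75 for Bard1, 0.68 for Rad51ap1, 0.58 for Brca2 and -0.01 for Rad52, 0.86 for Fancb and 0.08 for Fancl, and 0.56 for Chek2, 0.37 for Atm and 0.21 for Atrip. They were 0.34 for Rad50, 0.17 for Pms2, 0.50 for Ung, 0.06 for Xrcc1, 0.18 for Xpc, 0.56 for Xrcc6 and 0.11 for Lig4. By role, the median without WT 3 was 0.77 for recombination, 0.72 for the Fanconi pathway, 0.50 for the checkpoint, 0.34 for MRN, 0.35 for mismatch repair, 0.50 for base excision, 0.18 for nucleotide excision and 0.22 for end joining. At an unadjusted p under 0.05, 26 genes were higher without WT 3 (9.42% of all genes) and 1 was lower (7.05%), 33 differed by more than 0 (51.5% of all genes), and the median difference was 0.57 in place of 0.36. With WT 3 kept and WT 1, WT 2, Evi1 Tg 1, Evi1 Tg 2 or Evi1 Tg 3 left out in turn, 0 genes passed in each fit, where 0.0%, 0.0541%, 0.0%, 0.0% and 0.0225% of all genes were higher and 0.0361%, 0.176%, 0.0316%, 0.00902% and 0.113% lower. The genes higher at an unadjusted p under 0.05 then numbered 2, 2, 5, 2 and 4 in place of 10, which is 5.26%, 5.26%, 13.2%, 5.26% and 10.5% of the repair genes, against 3.12%, 3.72%, 3.14%, 2.64% and 4.54% of all genes. With so few genes, shares of 5.26% are near the background, and the median difference was 0.23 without WT 1. Xrcc3 and Ercc2 were among them in each of these 5 fits.

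**Figure D4:**
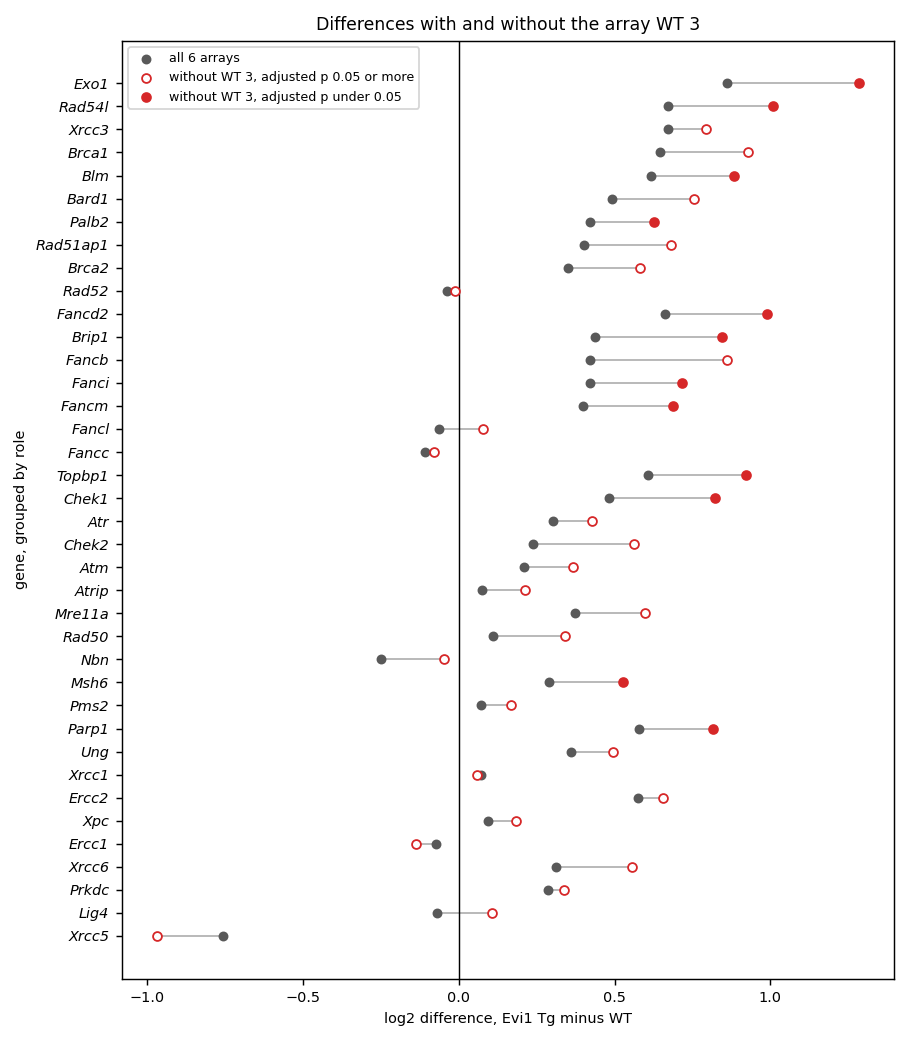
Log2 difference of each repair gene, Evi1 Tg minus WT, over all 6 arrays (grey) and without WT 3 (red, filled where the limma adjusted p was under 0.05). The difference of Exo1 goes from 0.86 to 1.29 and that of Ercc2 from 0.58 to 0.66, while Rad52, Fancc and Xrcc1 stay close to 0.

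WT 1 and WT 2 also read lowest in genes of the cell cycle. Taken as deviations from each gene's 6-array mean, the 38 repair genes had medians of -0.40, -0.39 and 0.27 in WT 1, 2 and 3 and 0.04, 0.22 and 0.19 in Evi1 Tg 1, 2 and 3. For 23 genes of S phase and replication they were -0.68, -0.58 and 0.34 in the WT group, against 0.16, 0.38 and 0.33 with the transgene, and for 19 genes of G2 and mitosis -0.52, -0.68 and 0.32 in the WT group, against 0.26, 0.28 and 0.44 with the transgene. Of these lists 23 of 23 and 19 of 19 genes had a difference above 0, with medians of 0.59 and 0.64, and 0 passed the limma test over all genes in either list. The summed intensity of the S phase list was 8735, 8998 and 17757 in WT and 15427 to 17645 in Evi1 Tg, and that of the G2 list 10149, 8959 and 17701 in WT and 17002 to 18708 in Evi1 Tg. At an unadjusted p under 0.05, 7 and 10 of these genes were higher and 0 lower, against 4.5% and 5.8% of all genes. Without WT 3, 20 and 18 were called higher, where 1.73% of all genes were. The part of the cell cycle in the differences of the repair genes was not tested.

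**Figure D5:**
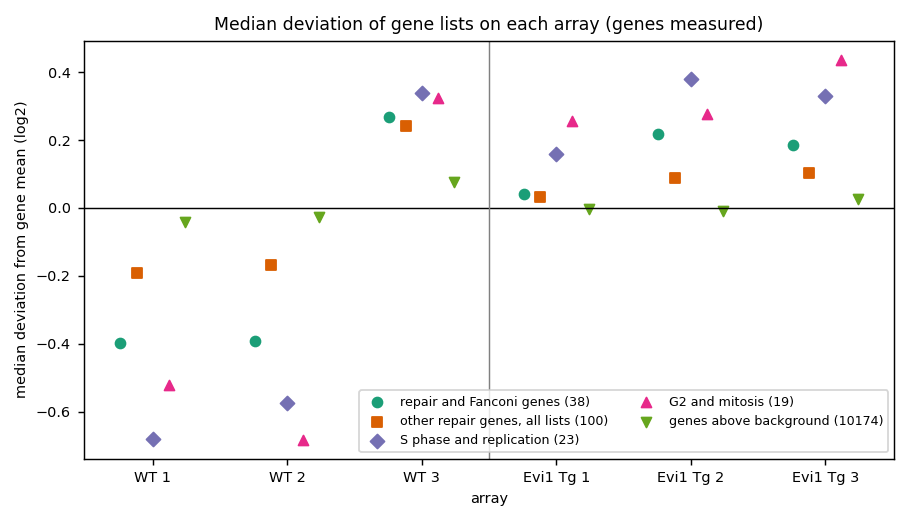
Median deviation of the genes of each list from their mean over the 6 arrays, on the log2 scale, with the number of measured genes in brackets. WT 1 and WT 2 lie below 0 in the repair and cell cycle lists and WT 3 lies with the Evi1 Tg arrays, while all genes above background stay between -0.04 and 0.08.

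A second list of repair genes, 113 by name and 100 measured, was compared in the same way. Its median difference was 0.16, with 74 of 100 genes above 0, and 0 passed the limma test over all genes in either direction. At an unadjusted p under 0.05, 9 of 100 were higher and 5 lower, against 4.5% and 5.8% of all genes. The genes named from this list are those with the smallest p in each of its groups. The 17 further checkpoint genes all had differences above 0 (median 0.32), and those with the smallest p were Clspn (0.61), the adaptor that lets ATR reach CHK1, Timeless (0.41) and Trp53bp1 (0.24). Among the further recombination genes 17 of 21 were above 0, with Babam1 at 0.30, the repair polymerase Polq at 0.70 and Rad51b at 0.40, and among the further Fanconi genes 12 of 16, with Faap24 at 0.60, Fance at 0.33 and Mad2l2 at 0.31. Base excision genes had a median of 0.10, with Lig1 at 0.61, the adenine glycosylase Mutyh at 0.46 and the flap nuclease Fen1 at 0.51. Nucleotide excision (median 0.01), mismatch repair (0.02) and end joining genes (0.01) had medians near 0, with Ercc5 at -0.43, Uvssa at -0.27, Ercc3 at -0.23, Mlh3 at -0.31, Pms1 at 0.21, Msh3 at 0.02, Xrcc4 at -0.40, Poll at 0.24 and Dntt, below background, at -0.10. Without WT 3, 15 of the 100 genes were called higher and 1 lower, against 1.73% and 0.78% of all genes.

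The smallest p in that second list belonged to Mgmt, which removes alkyl groups from guanine in a single step. Mgmt read 8.23, 8.37 and 8.18 in the WT group, against 7.49, 7.21 and 7.45 with the transgene. All Evi1 Tg arrays lay below all WT arrays, WT 3 included, with group means of 8.26 and 7.38 (difference -0.88, SE 0.10, limma adjusted p = 0.0533). Over 15 alternatives the difference lay between -0.93 and -0.79 and the adjusted p between 0.0235 and 0.224, and 3 of them called it: dim genes left out (0.0469), array weights (0.0293) and without WT 3 (0.0235). The 8 genes of direct reversal and translesion synthesis, Mgmt among them, had a median of -0.11, with Alkbh2 at 0.19 and Hltf at -0.21.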

How the data were processed

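Per the labels' protocols, biotin-labelled cDNA was made from total RNA (GeneChip WT PLUS). The deposited table holds probe set intensity, and its values (17.8 to 14719) show that the scale is linear. Background correction, normalization and summarisation are not given in the sources consulted. Each value was taken to log2 as it stood, without a pseudocount or a filter on low signal.

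Of 34351 probe sets, 23521 had 1 gene symbol in the platform annotation, 1814 had several and 9016 had none. Symbols were checked by Entrez identifier in RefSeq (23328 found, 0 renamed). The probe set with the highest mean over the 6 arrays stood for each gene, which gave 22180 genes. Evi1 Tg and WT (n = 3 each, grouped by the labels) were compared in R 4.3.3 by limma 3.58.1 (lmFit, then eBayes) without covariates. P-values were adjusted by Benjamini-Hochberg across every gene and called under 0.05. The procedure was tested on simulated data with independent noise for each gene and array. A shift shared by many genes on a single array, as seen in WT 3, was not simulated. Exact permutation tests used scipy 1.17.1, and figures matplotlib 3.10.9.

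The members and the lists were chosen with earlier results of these data known. Values per array are given for genes past the threshold, genes whose groups did not overlap, the 2 genes with the smallest p of each role (1 for roles of 2 or 3 genes), and the genes of highest and lowest mean level, and up to 3 genes with the smallest p are named of each further repair list. Among alternatives, values were quantile normalized or centred on the median, a pseudocount of 16 was added, and dim genes were removed. Probe sets were averaged per gene or all tested singly. The model was fitted with array weights, with trended robust eBayes, with the replicate number as a block, and without each array in turn. The number of arrays limits the precision.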

Additional observations from a re-analysis of the deposited data

How the results depend on the processing

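Over all alternatives other than leaving out an array, 0 of the repair genes passed an adjusted p under 0.05, and their median difference lay between 0.32 and 0.42. The number higher at an unadjusted p under 0.05, 10 as reported, was 5 (13.2%) with median centring, 21 (55.3%) with array weights and 6 (15.8%) with a pseudocount of 16, where 3.83%, 7.77% and 4.45% of all genes were. Genes with Evi1 Tg above WT on all arrays numbered 9 (8.17% of all genes) with quantile normalization and 1 (6.16% of all genes) with median centring, in place of 3. Of the further repair genes 1, Mgmt, was called with dim genes left out and 1, again Mgmt, with array weights. Array weights turned the difference of Fancl to 0.011 and that of Lig4 to 0.024, and gave WT 3 the lowest weight (0.455). Leaving out an array in turn gave 0 to 12 genes called, and 2 to 26 higher and 0 to 1 lower at an unadjusted p under 0.05. Medians ran from 0.23 to 0.57, with 28 to 33 genes above 0 and 0 to 16 further repair genes called. Of all genes, 0.0% to 1.73% were called higher in these fits and 0.00902% to 0.78% lower. At the unadjusted p, 2.64% to 9.42% of all genes were higher and 3.90% to 7.05% lower, and 51.2% to 55.4% lay above 0. The 12, the 26, the 16 and the median of 0.57 came from the fit without WT 3. Over the same fits some differences crossed 0: those of Fancl ran from -0.17 to 0.078, Atrip from -0.036 to 0.21, Chek2 from -0.057 to 0.56, Rad50 from -0.036 to 0.34, Pms2 from -0.017 to 0.17, Xpc from -0.028 to 0.18 and Lig4 from -0.16 to 0.11. The cause was not tested. Deviations from the group mean correlated across genes at 0.19, -0.18 and 0.06 for same-numbered arrays, and at -0.23 to 0.12 for different-numbered ones. WT 1 and Evi1 Tg 1 had the highest value, while WT 2 correlated best with Evi1 Tg 1. Such deviations sum to 0 within a group, so these values cannot settle if replicate numbers pair the arrays. With the replicate number as a block 13 genes were higher and 0 lower at an unadjusted p under 0.05, where 5.09% and 6.00% of all genes were, and 0 passed. Signal near background bounds the values of Fancc, Pms2 and Xrcc5.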
